A study of Homo sapiens with 12 samples.

Results

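The 7 APOBEC3 genes of the human genome, APOBEC3A, APOBEC3B, APOBEC3C, APOBEC3D, APOBEC3F, APOBEC3G and APOBEC3H, were followed by name among the 60504 features of a poly(A) RNA-seq table. The 12 libraries came from TKO cells, a derivative of the human multiple myeloma line KMS-11 with the genotype label KMS-11 WHSC1(+/-), in 4 groups of 3 biological replicates. WHSC1 is the older symbol of NSD2, a histone H3 lysine 36 methyltransferase that the t(4;14) translocation raises in this line. The TKO group had no vector, and the WT, D1240A and F1295A groups carried expression vectors for wild-type NSD2, NSD2 p.D1240A and NSD2 p.F1295A. All 4 groups share the TKO genotype, and the labels do not say whether a line is a clone or a pool of cells. Cells of an empty-vector control were not analysed here, so the presence of a vector and the NSD2 it encodes cannot be told apart in comparisons with TKO. The 3 such comparisons share their TKO libraries.

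APOBEC3 enzymes are zinc-dependent deaminases that turn cytosine into uracil, mainly in single-stranded DNA. They restrict retroviruses and retroelements, and some of them also mutate the cell's own genome. In myeloma, APOBEC mutation signatures are known above all from tumours with MAF translocations, and APOBEC3A and APOBEC3B are the members most often named as their source. Each gene encodes 1 or 2 deaminase domains with a zinc-binding site of a histidine, a glutamate and a pair of cysteines.

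The 7 genes stand side by side on the plus strand of chromosome 22 (GRCh38, GENCODE 29), from 38952741 to 39104067, a stretch of 151327 bases. The coding sequence of the zinc site was read from the genome for every member, because closeness in sequence bears on how well reads can be told apart. APOBEC3A, APOBEC3C and APOBEC3H have 1 such site, and APOBEC3B, APOBEC3D, APOBEC3F and APOBEC3G have 2, of which the second is shown. Each site shown lies within 1 coding exon, exon 3 of the transcript used for APOBEC3C and APOBEC3H and exon 6 for APOBEC3B, APOBEC3F and APOBEC3G, and capitals mark the codons of the histidine, the glutamate and the cysteines.
APOBEC3B, chr22:38991365-38991475: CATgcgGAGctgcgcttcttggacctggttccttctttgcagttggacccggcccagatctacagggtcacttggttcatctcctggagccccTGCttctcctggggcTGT
APOBEC3C, chr22:39017787-39017891: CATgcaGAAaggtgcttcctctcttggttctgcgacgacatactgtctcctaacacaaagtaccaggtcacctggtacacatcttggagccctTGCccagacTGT
APOBEC3F, chr22:39052095-39052199: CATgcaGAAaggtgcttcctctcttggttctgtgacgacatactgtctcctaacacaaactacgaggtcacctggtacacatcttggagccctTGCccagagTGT
APOBEC3G, chr22:39086312-39086416: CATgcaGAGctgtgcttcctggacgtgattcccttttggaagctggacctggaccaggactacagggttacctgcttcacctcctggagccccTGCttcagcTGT
APOBEC3H, chr22:39101246-39101350: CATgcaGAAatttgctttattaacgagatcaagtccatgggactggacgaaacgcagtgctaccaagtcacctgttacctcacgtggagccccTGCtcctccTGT

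The site of APOBEC3B was identical to that of APOBEC3A (chr22:38961420-38961530) at 111 of 111 bases. That of APOBEC3F was identical to the second site of APOBEC3D (chr22:39031715-39031819) at 105 of 105 bases, and APOBEC3C matched both at 101 of 105. APOBEC3G was closest to the first pair, at 86 of 111 aligned positions, and APOBEC3H stood furthest from that pair, at 66 of 111. Over whole annotated transcripts, 37.8% of the distinct 50-base words of APOBEC3B also occurred in another member, as did 20.8% of those of APOBEC3F, 14.8% of those of APOBEC3D, 7.06% of those of APOBEC3G, 1.14% of those of APOBEC3C and 0% of those of APOBEC3H. Of the words of APOBEC3D, 81.1% also lie in an annotated read-through gene of this locus, which was not analysed here. Reads from such shared stretches cannot be assigned to 1 member by sequence alone, and by these shares APOBEC3B, APOBEC3D and APOBEC3F are touched most. The words include those of transcripts with retained introns, as in APOBEC3G, and of an APOBEC3A transcript that runs into APOBEC3B. The shares therefore do not rank how far mRNA reads of the members can be told apart. The antisense gene APOBEC3B-AS1 was listed at 0 in all 12 libraries.

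Levels are given as FPKM, fragments scaled by transcript length and by the mapped total, after rescaling between libraries. They are read per length and so can be compared between genes. Between 11849 and 12213 genes reached 1 FPKM in a library. The number of reads is unknown, so no counting intervals are given. Changes are differences of log2(FPKM + 0.5), which understates the change of low genes. A gene was called at a Benjamini-Hochberg adjusted p under 0.05 from limma over 14391 tested genes. NSD2 itself measured 60.1 ± 2.26 FPKM in TKO (SD, n = 3), 190.5 ± 3.89 in WT, 250.6 ± 8.47 in D1240A and 164 ± 6.56 in F1295A, with vector and chromosomal reads not told apart. D1240A replicate 2 stood apart, with 52.7% of its FPKM sum in ribosomal RNA features against 1.66% to 2.47% in the others, and its low values came in larger steps, by 0.7 on the log2 scale relative to TKO replicate 1, against -0.2 to 0.4 in the others. A larger step means fewer counted reads. The 9 plasma cell markers summed to 2337 to 2550 FPKM in the TKO libraries and 3820 to 5044 in the others. JCHAIN (3787 in WT against 1731 in TKO), XBP1 (428.5 against 257.6) and PRDM1 (46.1 against 28.4) were called higher in WT, and SDC1 (0.235 against 4.01) lower. TNFRSF17 measured 162 in WT and 102 in TKO, IRF4 125 and 94.5, MZB1 239.7 and 257, SLAMF7 0.701 and 0.486, and CD38 0.349 and 0.850. The part of these shifts in the APOBEC3 results was not tested. The markers of B cells, T cells, NK cells and monocytes, 4 to 5 genes per list, summed to at most 3.33 FPKM in any library, a T cell sum made up mostly of CD247 and CD3E.

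In TKO cells the order of the members by level was APOBEC3C, APOBEC3B, APOBEC3G, APOBEC3F, APOBEC3D, APOBEC3H and APOBEC3A. Their sum was 113 ± 1.45 FPKM in TKO, 53.1 ± 1.79 in WT, 57.6 ± 3.10 in D1240A and 55.9 ± 1.47 in F1295A. APOBEC3C alone made up 60.9% of that sum in TKO and 61.1%, 61.8% and 62.7% in WT, D1240A and F1295A. In WT the order began likewise with APOBEC3C and APOBEC3B, APOBEC3D (1.42 ± 0.392) and APOBEC3F (1.42 ± 0.182) did not differ beyond their spread, and APOBEC3G came after them. In bulk RNA, fewer cells that express a gene and less RNA per cell cannot be told apart.

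**Figure D1:**
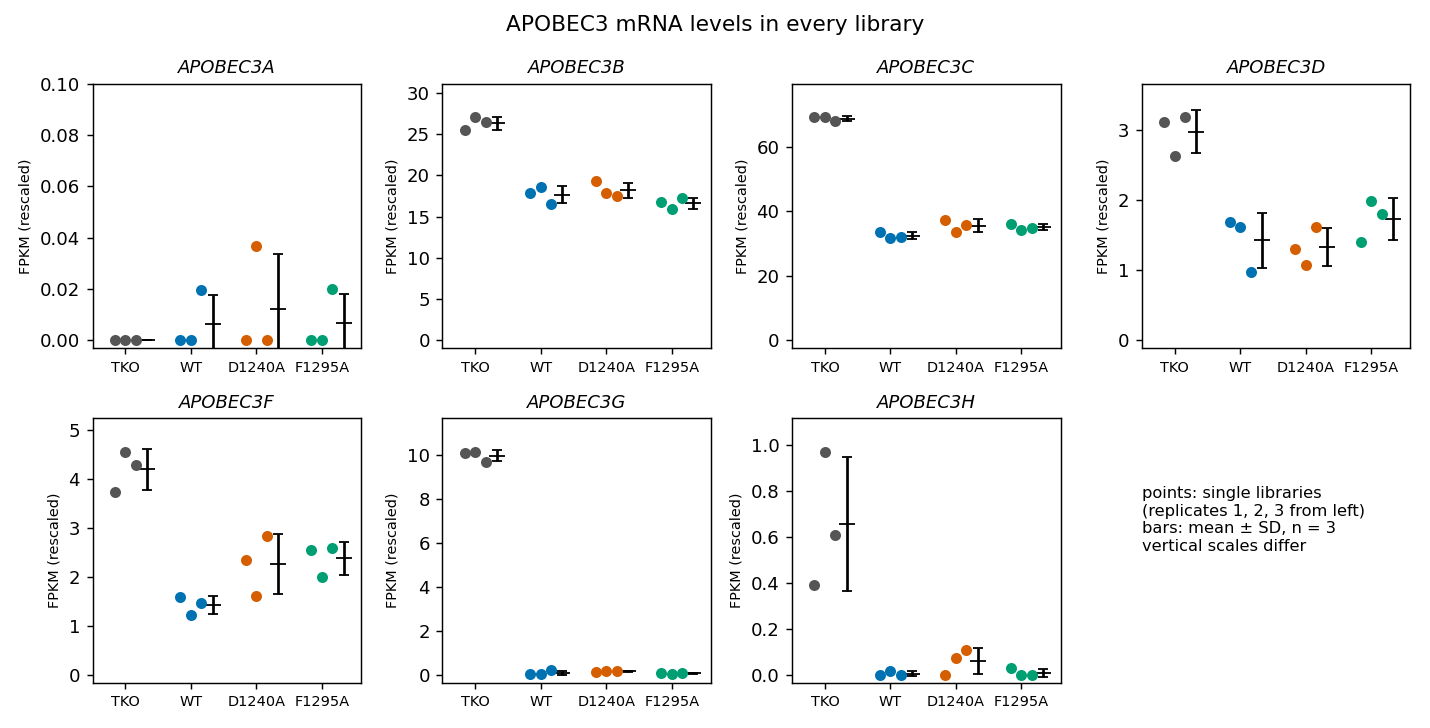
FPKM after rescaling of the 7 APOBEC3 genes in each of the 12 libraries, 1 panel per gene, with points for libraries and bars for the mean ± SD of 3. APOBEC3G measured 9.70 to 10.2 in TKO and 0.0401 to 0.224 in the 9 libraries with a vector, and APOBEC3A stayed at or under 0.0369 throughout.

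All 5 members that passed the filter, APOBEC3B, APOBEC3C, APOBEC3D, APOBEC3F and APOBEC3G, fell in each of the 3 vector lines against TKO. In WT, APOBEC3B kept 67.1% of its TKO level, APOBEC3D 48.0%, APOBEC3C 47.3%, APOBEC3F 34.0% and APOBEC3G 1.17%. Among all 14391 tested genes, 49.7% were called in WT against TKO, 23.9% lower and 25.8% higher. In D1240A against TKO 44.5% were called, 21.2% lower and 23.3% higher, and in F1295A 45.7%, 21.9% lower and 23.8% higher. The filter asked for at least 0.5 FPKM in at least 3 libraries. APOBEC3B, APOBEC3C, APOBEC3D and APOBEC3F met it in all 12 libraries, whereas APOBEC3G met it in the 3 TKO libraries only, so its own difference let it in. APOBEC3H reached the minimum in 2 libraries and APOBEC3A in 0, and neither was tested.

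APOBEC3G encodes a double-domain deaminase that is packaged into virions and blocks HIV lacking Vif. In TKO it ranked after APOBEC3C and APOBEC3B, at 10.1, 10.2 and 9.70 FPKM. It measured 0.0684, 0.0592 and 0.224 with wild-type NSD2, 0.149, 0.209 and 0.169 with D1240A, and 0.110, 0.0401 and 0.0996 with F1295A. Every library with a vector lay far under every TKO library, and the values of the 3 vector lines overlapped one another in part. The mean in D1240A was 1.76% of that in TKO, and in F1295A 0.832%. The log2 changes were -4.10 (95% interval -4.37 to -3.82, adjusted p = 3.13e-10), -3.96 (-4.23 to -3.68, adjusted p = 6.72e-10) and -4.17 (-4.45 to -3.89, adjusted p = 3.59e-10). Since APOBEC3G was admitted to the test by its TKO level, these values describe the gap and are no independent support. The number of reads behind the low values is unknown, and a pseudocount of 0.1 in place of 0.5 moved the 3 changes to -5.62, -5.20 and -5.81. In all groups with a vector APOBEC3G made up 0.148% to 0.307% of the summed APOBEC3 level, against 8.85% in TKO.

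APOBEC3C, a single-domain member with weaker antiviral action, was the most abundant of the family in every library. Its levels were 69.1, 69.2 and 67.9 FPKM in TKO, 33.6, 31.8 and 32.1 with wild-type NSD2, 37.4, 33.5 and 35.9 with D1240A, and 36.1, 34.2 and 34.8 with F1295A. The TKO libraries lay close together and well above all the others. D1240A kept 51.8% of the TKO mean and F1295A 50.9%. The log2 changes were -1.07 (SE 0.0413, adjusted p = 2.09e-09), -0.94 (adjusted p = 9.1e-09) and -0.96 (adjusted p = 6.34e-09).

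APOBEC3B is a nuclear double-domain deaminase expressed in many tumours. It measured 25.5, 27.1 and 26.5 FPKM in TKO, 17.9, 18.6 and 16.5 with wild-type NSD2, 19.3, 17.8 and 17.5 with D1240A, and 16.7, 15.9 and 17.2 with F1295A. Each vector line lay below the lowest TKO library. The log2 changes were -0.56 in WT (SE 0.0538, adjusted p = 4.09e-06), -0.52 in D1240A (adjusted p = 9.92e-06) and -0.65 in F1295A (adjusted p = 1.47e-06). Its share of the APOBEC3 sum was 23.3% ± 0.494 in TKO and 33.3% ± 1.43 in WT, 31.6% ± 1.39 in D1240A and 29.8% ± 0.621 in F1295A.

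**Figure D2:**
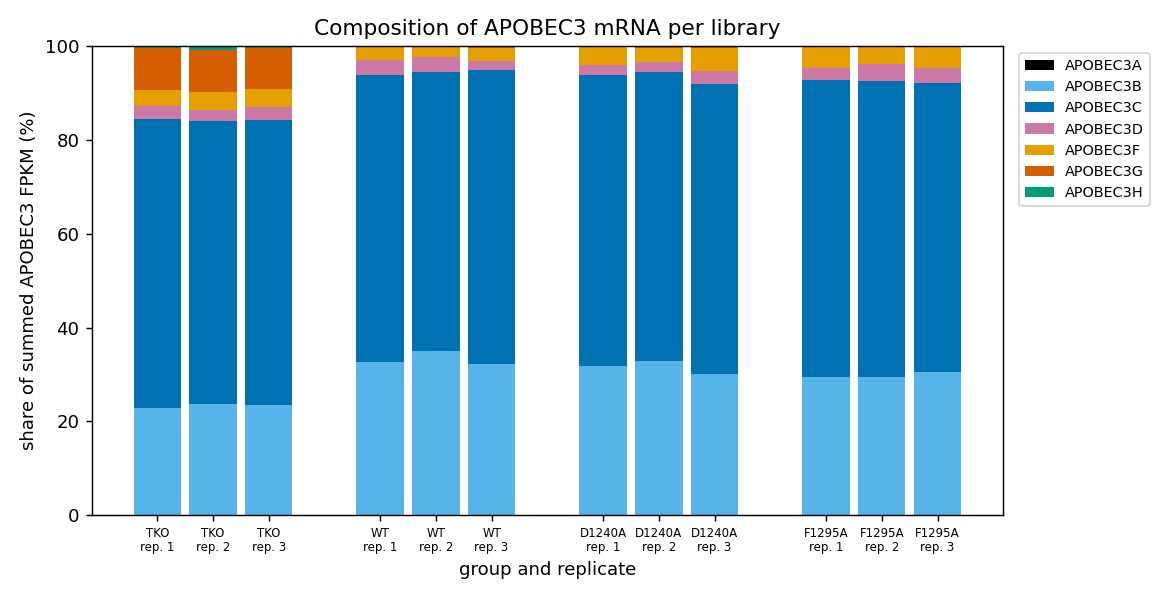
Share in percent of each APOBEC3 gene in the summed APOBEC3 FPKM of each library, stacked to 100%. The APOBEC3C share stayed between 59.6% and 63.4%, while the APOBEC3G share was 8.65% to 9.03% in TKO and at most 0.437% in the others.

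APOBEC3F and APOBEC3D are double-domain relatives that restrict HIV lacking Vif, and both were low here. APOBEC3F measured 3.73, 4.55 and 4.29 FPKM in TKO, 1.58, 1.22 and 1.46 with wild-type NSD2, 2.35, 1.61 and 2.84 with D1240A, and 2.55, 2.00 and 2.59 with F1295A. All vector libraries lay under the TKO range, with the WT libraries lowest. Its log2 changes from TKO were -1.29 in WT (adjusted p = 3.44e-05), -0.78 in D1240A (adjusted p = 0.00181) and -0.71 in F1295A (adjusted p = 0.00329). APOBEC3D measured 3.11, 2.62 and 3.18 in TKO, 1.69, 1.61 and 0.973 with wild-type NSD2, 1.30, 1.07 and 1.62 with D1240A, and 1.41, 1.99 and 1.80 with F1295A. The TKO libraries were again the 3 highest, and the vector lines overlapped one another. Its changes were -0.87 (adjusted p = 0.00119), -0.93 (adjusted p = 0.000897) and -0.64 (adjusted p = 0.00893). With SDs of 0.130 to 0.335 on the log2 scale over the 4 groups, both genes spread more between replicates than APOBEC3C, at 0.0150 to 0.0793.

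APOBEC3H, a single-domain member whose antiviral strength varies between human haplotypes, was low even in TKO. It measured 0.392, 0.969 and 0.607 FPKM there, 0, 0.0197 and 0 with wild-type NSD2, 0, 0.0738 and 0.109 with D1240A, and 0.0299, 0 and 0 with F1295A. The groups with a vector did not overlap TKO. In the fit with no filter on low values, over 29605 genes, its log2 changes from TKO were -1.16 in WT (adjusted p = 0.000202), -1.02 in D1240A (adjusted p = 0.000639) and -1.15 in F1295A (adjusted p = 0.000248). APOBEC3A, a potent DNA mutator that interferon induces in myeloid cells, was listed at 0 in 9 libraries and at 0.0195, 0.0369 and 0.0199 in 1 library each of WT, D1240A and F1295A. Its annotation includes a hybrid transcript that runs on to base 38992778, within APOBEC3B, and no fold is given for it.

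Of the 7 members, the promoter table drawn from RefSeq (GRCh38.p14) matched 1, APOBEC3H. Its window runs from 250 bases before the start to 50 after it (chr22:39096994-39097293, plus strand), and is shown with the hexamer GAAACT, a core found in interferon response elements, in capitals.
APOBEC3H promoter: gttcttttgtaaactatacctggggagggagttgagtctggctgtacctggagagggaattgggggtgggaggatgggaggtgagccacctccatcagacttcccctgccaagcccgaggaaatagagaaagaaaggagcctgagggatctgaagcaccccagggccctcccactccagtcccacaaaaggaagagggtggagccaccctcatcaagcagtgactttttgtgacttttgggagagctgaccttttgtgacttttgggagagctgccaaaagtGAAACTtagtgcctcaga
The hexamer stood once, at base 283, and occurs on either strand in 14.8% of the 35116 promoters of this table. The fuller interferon-stimulated response element, GAAA, any 2 bases and GAAA again, the gamma-activated site TTCNNNGAA and the kB consensus had no match in this window on either strand, and occur in 3.57%, 7.66% and 11.3% of all promoters. The hexamer and the fuller element can overlap. A match describes letters only.

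Between lines with a vector, APOBEC3F was lowest in WT. In D1240A against WT, 1 of the 5 tested members was called, APOBEC3F, where 19.1% of all tested genes were called in either direction, 10.9% lower and 8.2% higher. In F1295A against WT 0 members were called, at a background of 2.71% in either direction, 1.81% lower and 0.896% higher. In D1240A against F1295A 0 were called, at a background of 6.09%, 3.09% lower and 3% higher. The unadjusted limma p was under 0.05 for 2 members in F1295A against WT, APOBEC3C (0.025) and APOBEC3F (0.00356), and for 1 in D1240A against F1295A, APOBEC3B (0.0394).

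APOBEC3F was at 2.27 ± 0.617 FPKM in D1240A and 1.42 ± 0.182 in WT, a log2 difference of 0.50 (95% interval 0.16 to 0.85, adjusted p = 0.046). The lowest D1240A library, replicate 2 at 1.61, was next to the highest WT library at 1.58. F1295A, at 2.38 ± 0.333, differed from WT by 0.58 (0.23 to 0.93, adjusted p = 0.0839) and was not called, although its libraries also lay above those of WT. D1240A and F1295A differed by -0.08 (-0.42 to 0.27, adjusted p = 0.819). The call in D1240A was lost without TKO replicate 1, 2 or 3 (adjusted p = 0.0535, 0.0579 and 0.0606), WT replicate 1, 2 or 3 (0.0716, 0.143 and 0.089), D1240A replicate 1 or 3 (0.0999 and 0.154), or F1295A replicate 1 or 3 (0.0571 and 0.0554). Without D1240A replicate 2, the library rich in ribosomal RNA, the difference of D1240A from WT was 0.69 (adjusted p = 0.00662) and that of F1295A from WT was called (0.58, adjusted p = 0.0258). NSD2 mRNA was higher in D1240A than in WT and lower in F1295A, by log2 0.39 and -0.22, and its part in these differences was not tested.

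The 4 other tested members gave no call between vector lines. APOBEC3C was 0.13 higher in D1240A than in WT (0.04 to 0.22, adjusted p = 0.0503), and passed the threshold without D1240A replicate 2 (0.17, adjusted p = 0.0124). In F1295A it was 0.11 above WT (0.02 to 0.20, adjusted p = 0.22), with no overlap of libraries. For APOBEC3B the intervals were -0.08 to 0.16 in D1240A against WT and -0.20 to 0.03 in F1295A against WT. APOBEC3D, the most variable, left wider intervals, -0.44 to 0.31 and -0.15 to 0.60. Differences in APOBEC3B beyond the narrow bounds lie outside the 95% intervals, whereas sizeable differences in APOBEC3D lie inside them. APOBEC3G lay under both the filter and the pseudocount in all vector libraries, so the size of its differences between them cannot be read.

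**Figure D3:**
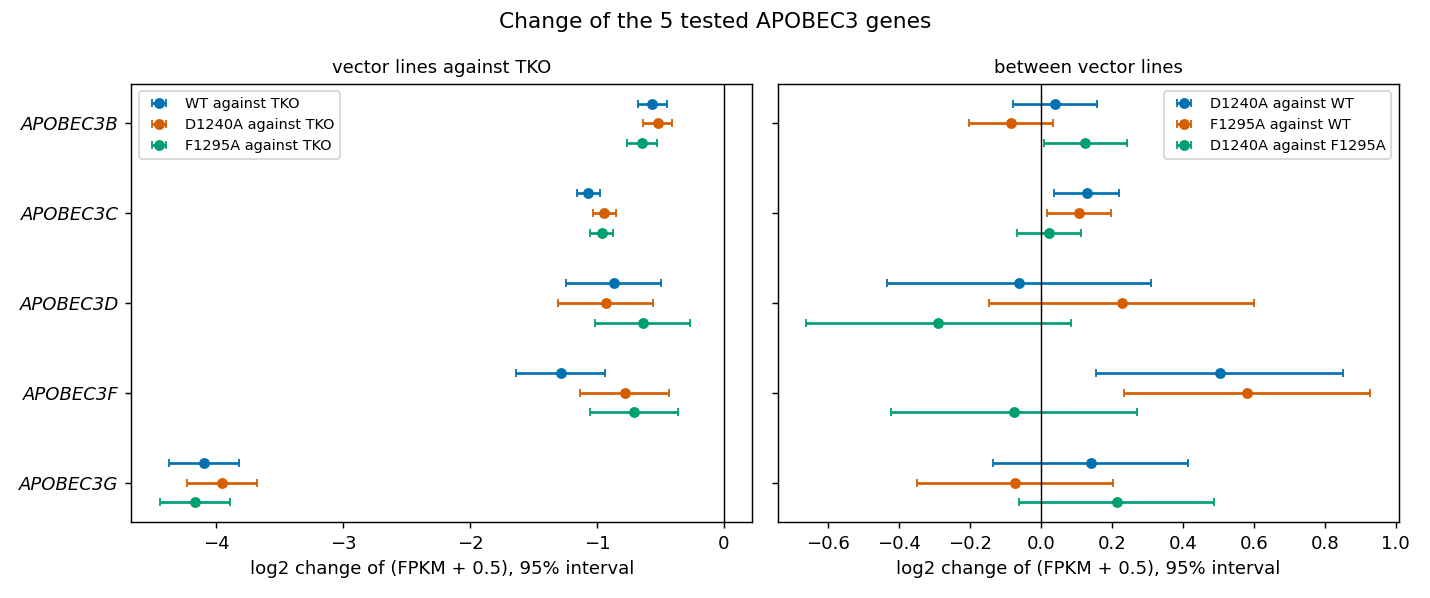
Log2 change of FPKM + 0.5 with its 95% interval for the 5 tested APOBEC3 genes, against TKO on the left and between vector lines on the right. All 15 changes on the left lie below 0, from comparisons that share the TKO libraries. Among all tested genes 50.8%, 48.1% and 50.3% lie below 0 in WT, D1240A and F1295A against TKO. APOBEC3G, near -4, was admitted to the test by its TKO level. On the right APOBEC3F shows the greatest distance from 0 in D1240A (0.50) and in F1295A (0.58) against WT.

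The neighbours of the cluster at 22q13.1, a list of 23 genes with 20 tested, did not share the pattern of uniformly lower levels. In WT against TKO 10 rose, 3 fell and 7 were not called, with a median change of 0.13 against -0.01 over all tested genes. The median of the 5 tested members was -1.07, with APOBEC3G among them, which its TKO level admitted to the test. The members that met the filter in all 12 libraries changed by -0.56 (APOBEC3B), -1.07 (APOBEC3C), -0.87 (APOBEC3D) and -1.29 (APOBEC3F). The nearest tested gene before the cluster, the Polycomb gene CBX6 at 80.4 kb, measured 21.6 FPKM in WT and 22.3 in TKO (-0.05, adjusted p = 0.415). The nearest one after it, CBX7 at 16.1 kb, another Polycomb gene, was higher in WT at 14.8 against 10.5 (0.48, adjusted p = 0.00019). Further out, the ribosomal protein gene RPL3 (0.55), the glycosyltransferase gene MGAT3 (0.44) and the stress factor ATF4 (0.89) rose and the deubiquitinase gene JOSD1 (-0.40) fell. Of the 7 tested neighbours after the cluster, 6 rose and 0 fell in WT against TKO. Of the 13 before it, 4 rose and 3 fell. Those after it gave 4 higher and 1 lower in D1240A, and 4 higher and 0 lower in F1295A. Over both sides, in D1240A against TKO 7 of the 20 rose and 3 fell, and in F1295A 8 rose and 4 fell. Over all tested genes, 25.8% rose and 23.9% fell in WT against TKO. The shares were 23.3% and 21.2% in D1240A, and 23.8% and 21.9% in F1295A.

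**Figure D4:**
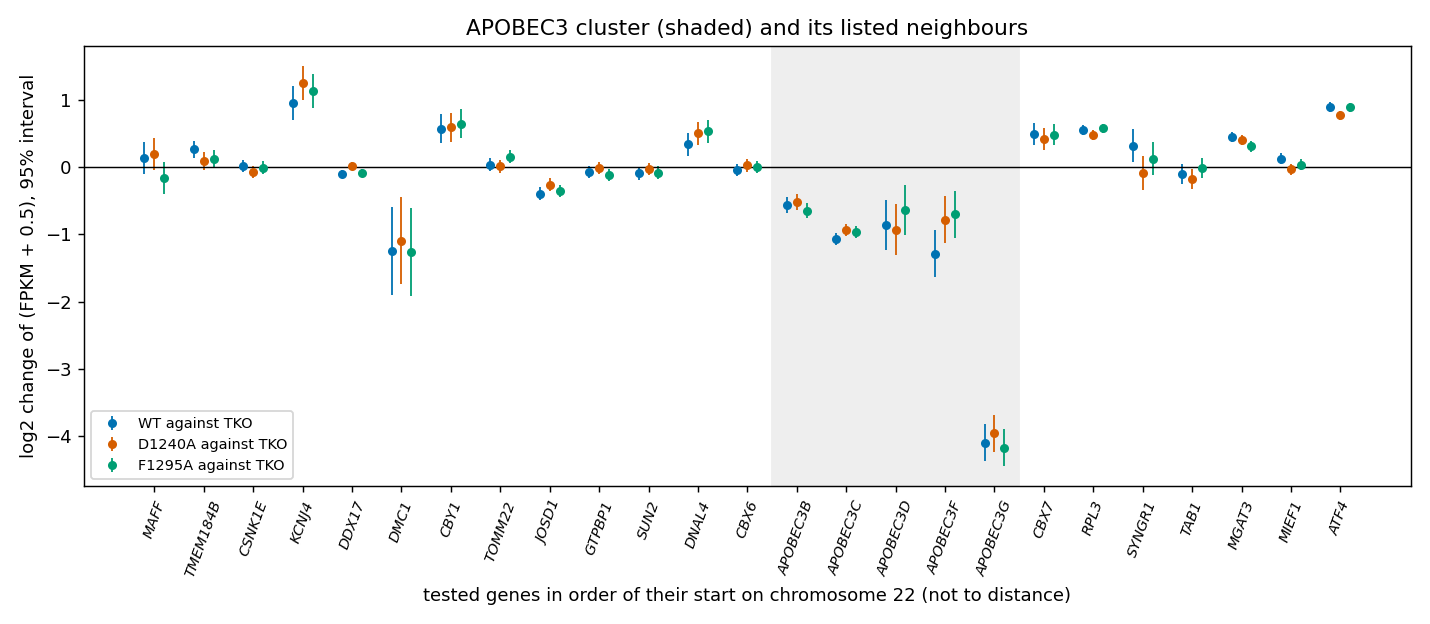
Log2 change against TKO with its 95% interval for the tested APOBEC3 genes (shaded) and 20 tested neighbours, in order of their start on chromosome 22. CBX6 and CBX7, on either side of the shaded genes, lie at -0.05 and 0.48 in WT, and every shaded interval lies below 0. APOBEC3G, among the shaded genes, was admitted to the test by its TKO level.

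Related deaminases outside the family were listed as 13 genes, 7 of them tested. APOBEC1, ADARB2 and CDA were listed at 0 in all libraries. ADAT3, a subunit of a tRNA adenosine deaminase, fell in WT at 1.60 against 2.38 FPKM (-0.46, adjusted p = 0.0146). DCTD, which deaminates dCMP, fell by 0.16 on the log2 scale (adjusted p = 0.00245). ADAR, the main RNA editing enzyme, at 207.6 against 214.5 FPKM (-0.05, adjusted p = 0.405), ADARB1 (0.18, adjusted p = 0.0862), ADAT1 (-0.18), ADAT2 (-0.02) and CDADC1 (0.10) were not called. In D1240A, ADARB1 rose by 0.45 (adjusted p = 0.000711) and DCTD fell by 0.17, and in F1295A ADAT3 (-0.45) and DCTD (-0.18) fell. The median of these 7 genes in WT against TKO was -0.05.

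The enzymes that act on the uracil left by deamination, 20 uracil and abasic site repair genes, were all tested. In WT against TKO 1 rose, 5 fell and 14 were not called, with a median of -0.03. The glycosylase MBD4 (-0.20) and the mismatch repair gene MSH6 (-0.17) fell, and MAD2L2, which takes part in translesion synthesis, rose by 0.27. In D1240A 2 rose and 4 fell, and in F1295A 2 rose and 2 fell. Over all tested genes, 25.8% rose and 23.9% fell in WT against TKO. The shares were 23.3% and 21.2% in D1240A, and 23.8% and 21.9% in F1295A.

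Pathways known to control APOBEC3 transcription were read from 3 lists. Not every listed gene is such a regulator, and the interferon list includes restriction factors that interferon induces. Among all tested genes, 25.8% were called higher and 23.9% lower in WT against TKO. The shares were 23.3% and 21.2% in D1240A against TKO, and 23.8% and 21.9% in F1295A. RB, E2F and DREAM factors, only some of which repress APOBEC3B in resting cells, numbered 20 tested genes. Of these, 4 rose and 9 fell in WT against TKO, with a median of -0.09. E2F2 (-0.36) and RBBP4 (-0.27) fell, and TFDP1 (0.41) and LIN37 (0.55) rose. Of 14 NF-kB subunits and regulators of the non-canonical pathway, which can induce APOBEC3B, 4 rose and 6 fell, with a median of -0.06. NFKB2 (0.47) and the kinase gene CHUK (0.79) rose, and TRAF2 (-0.48) and IKBKG (-0.71) fell. Of 25 tested genes of interferon signalling and interferon-induced restriction, from a list of 34, 2 rose and 14 fell, with a median of -0.37. The factor IRF1 (-0.66), the receptor chain IFNAR2 (-0.61), and the restriction factors SAMHD1 (-0.66) and BST2 (-0.46) were lower. In D1240A against TKO 11 of the 25 fell and 2 rose, and in F1295A 13 fell and 4 rose. The medians there were -0.13 and -0.29.

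**Figure D5:**
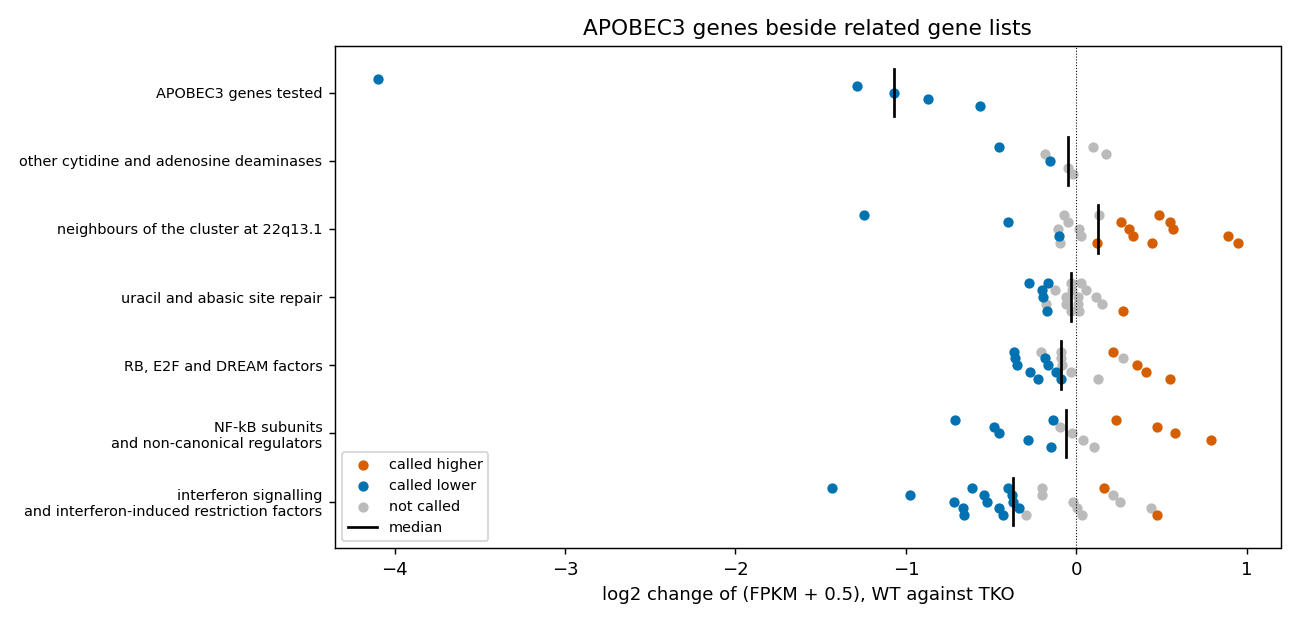
Log2 change in WT against TKO of each tested gene of the APOBEC3 family and of 6 related lists, coloured by call, with the median of each list as a bar. The medians are -1.07 for the 5 tested APOBEC3 genes, -0.37 for the interferon list and 0.13 for the neighbours of the cluster. The APOBEC3 median includes APOBEC3G, which its TKO level admitted to the test.

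The tested genes whose levels ran most like those of each member were found by Pearson correlation of log2(FPKM + 0.5) over the 12 libraries, a description in which the shared TKO libraries weigh heavily. For APOBEC3G they were the thrombin receptor gene F2RL3 (r = 0.998), ADAMTSL2 (0.997) and XK (0.997). F2RL3 measured 5.78 FPKM in TKO and 0.483 to 0.529 in the vector lines, and XK 11.2 and 3.96 to 4.52. For APOBEC3C they were PMPCB (0.996), DONSON (0.995) and RBBP7 (0.995), and for APOBEC3B MMP24OS (0.993), ASMTL (0.984) and the ferritin gene FTH1 (0.983). The correlations were lower for APOBEC3D, with STK32C (0.954), RAB39B (0.951) and TCTEX1D2 (0.947), and for APOBEC3F, with TSR2 (0.956), RNF208 (0.956) and the splicing factor SRSF1 (0.953). RNF208 had the order of APOBEC3F in part, at 1.04 FPKM in TKO, 0.395 in WT, 0.684 in D1240A and 0.616 in F1295A.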

How the data were processed

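Poly(A) RNA of 12 libraries was analysed, 3 labelled biological replicates in each of 4 groups. The p-values set group differences against the spread between libraries within groups, estimated over all 12. The labels do not say whether replicates of a group are separately made lines, so variation between such lines may not be covered. Per the submitters' processing notes, Trimmomatic 0.36, FastQC 0.11.4, STAR 2.7.9a, RSEM 1.3.1, DESeq2 and build GRCh38 were used. The authors' deposited table holds 1 value per feature and library, read as FPKM from its values. RSEM divides reads that match several transcripts by estimate, which bears on paralogs. The sources used here do not give the annotation release, strand setting or read totals.

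Structural RNA features (7089 of 60504) were left out, and each library was divided by its trimmed mean ratio to the average library (log2 scale, 30% off each side, genes averaging at least 1 FPKM). The 14391 genes reaching 0.5 FPKM in 3 or more libraries entered a limma 3.58.1 fit under R 4.3.3. Its values were log2(FPKM + 0.5), its only factor the group, with all 12 libraries and a variance trend. All 6 pairs of groups were compared, with Benjamini-Hochberg adjustment over all tested genes. Names, positions and sequences came from GENCODE 29 and GRCh38, in which 56996 features have their identifier, and from RefSeq. Scripts used Python 3.11.15, and the fit was tested on simulated data.

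The members and lists were chosen with earlier results of these data known. Named were every member, NSD2, the tested other deaminases, the nearest tested neighbours, the 4 tested members of each list with the smallest adjusted p in WT against TKO, and the 3 genes most like each tested member. Some genes that this rule picks are not reported here. Alternatives were median-ratio scaling, values as deposited, no filter, a 1 FPKM filter, pseudocounts of 0.1 and 1, structural RNAs kept, a replicate block, only the compared groups, medians of 25 neighbouring genes on each side removed, and each library left out.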

Additional observations from a re-analysis of the deposited data

Results flagged for a closer look

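The change from TKO of APOBEC3F differed between the wild-type and the D1240A vector lines by the direct limma test of D1240A against WT, 0.50 on the log2 scale (adjusted p = 0.046). Its changes from TKO, -1.29 in WT and -0.78 in D1240A, share the TKO libraries. In the 22 alternatives the adjusted p ranged from 0.00662 to 0.181 and the difference from 0.36 to 0.69. The call was lost in 16 of them. It was 1 call among 5 tested members, where 19.1% of all tested genes were called in D1240A against WT.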

How the results depend on the processing

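Against TKO, APOBEC3B, APOBEC3C, APOBEC3D and APOBEC3F kept their direction and call under every alternative run. APOBEC3G did so wherever it was tested, but its TKO level admitted it to the filtered fits. Its stability there is no independent support. Leaving out a TKO library removed APOBEC3G by the filter, so 4 to 5 members were called. The APOBEC3G change depended on the pseudocount, from -3.30 (1) to -5.62 (0.1) in WT, -3.22 to -5.20 in D1240A and -3.34 to -5.81 in F1295A.

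Between vector lines calls were less stable, and the cause was not tested. In D1240A against WT, the main fit called 1 of the 5 tested members and 19.1% of all tested genes. With median-ratio scaling, values as deposited, no filter, structural RNAs kept, only the compared groups or window medians removed, 0 members were called. With a 1 FPKM filter or a pseudocount of 1, 2 were called, APOBEC3C joining APOBEC3F (adjusted p = 0.0469 and 0.0499). Leaving out 1 library gave 0 to 2 members, and 0 to 1 in F1295A against WT. Over all genes, 2754 calls in D1240A against WT became 1608 as deposited, 1772 with the compared groups only and 1723 to 2831 with 1 library left out. In F1295A against WT, 390 became 89, 255 and 149 to 514. In D1240A against F1295A, 876 became 63, 91 and 310 to 1224, and 432 with no filter. As deposited, all genes shifted by a median of -0.12 in D1240A against TKO and -0.10 against WT, and higher and lower calls were 1589 and 3807 (3348 and 3058 after rescaling), 249 and 1359 (1180 and 1574), and in F1295A against WT 17 and 72 (129 and 261).

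Small differences that were not called changed sign. As deposited, APOBEC3B in D1240A against WT was -0.0788 and APOBEC3C in D1240A against F1295A -0.0697, the latter also -0.00239 with window medians removed. With 1 library left out, the lowest and highest values in D1240A against WT were -0.00899 and 0.0747 for APOBEC3B and -0.245 and 0.0429 for APOBEC3D. They were -0.140 and 0.0465 for APOBEC3G in F1295A against WT. In D1240A against F1295A they were -0.0144 and 0.0643 for APOBEC3C and -0.225 and 0.106 for APOBEC3F.

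Deviations from the group mean correlated only weakly between libraries of different groups with the same replicate number (r = -0.05 to 0.09, median 0.03). Between libraries with different numbers r was -0.11 to 0.08, with a median of -0.02. The main fit used no pairing, and a weak pairing by number is not excluded. With the replicate block, 2 of the 5 tested members were called in D1240A against WT, APOBEC3F (adjusted p = 0.0381) and APOBEC3C (0.0355). There the main fit called 1 member and 19.1% of all tested genes. In D1240A against F1295A the block gave 525 called genes. The block changed no other call of a member. Read depth is unknown, and limits APOBEC3A, APOBEC3H and the low APOBEC3G values most.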
